A study of Sus scrofa with 27 samples.

Results

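The unfolded protein response of the endoplasmic reticulum (ER) was examined through 10 listed genes in pig lungs kept on ex vivo lung perfusion (EVLP). EVLP is a procedure in which a donor lung is ventilated and perfused outside the body. Genes were taken from the deposited count table by their gene name, and a gene with fewer than 10 counts in every library would have been dropped. Of the 10 genes, 9 were found among 31908 genes in all, namely HSPA5, HSP90B1, DNAJB9, XBP1, ATF6, HERPUD1, PDIA4, CRELD2 and MANF. SDF2L1 was not found by name, but an unnamed entry (ENSSSCG00000010084) carries the NCBI gene number that RefSeq gives to SDF2L1. Its values are given separately, and it is not counted among the 9. All 9 genes had at least 161 counts in every library and all 9 entered every test.

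The study compared 2 ways of running EVLP on lungs of Large-White pigs from a non-heart-beating donor model. All lungs went through cold ischaemia and were then perfused for 12h by the Toronto protocol with Steen solution containing methylprednisolone, cefuroxime and heparin. In the Gold Standard group (GS, 5 pigs, numbered 9, 17, 44, 55 and 77) part of the perfusate was replaced at intervals, and in the Pediatric Dialysis group (PD, 4 pigs, numbered 2, 3, 4 and 5) a pediatric dialysis membrane worked continuously on the circuit. A biopsy of each lung was taken at 0h (after cold ischaemia, before perfusion), 6h and 12h, which gave 27 RNA-seq libraries. The model has no recipient, the circuit carried a leukocyte filter, and methylprednisolone, a steroid, was present in both groups. Age and sex of the pigs are not given in the sources used here.

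Secreted and membrane proteins are folded in the ER. When unfolded proteins accumulate there, the membrane sensors ATF6, IRE1 (the ERN1 gene) and PERK (the EIF2AK3 gene) start a response that raises chaperones, the machinery that exports and degrades misfolded proteins, and factors that slow translation. In the lung, the alveolar type 2 cells that make surfactant, the secretory cells of the airway and the plasma cells carry a high secretory load. The chaperone HSPA5 (BiP) also holds the sensors inactive, XBP1 is the transcription factor spliced by IRE1, and a count per gene cannot separate spliced from unspliced XBP1.

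In the Sscrofa11.1 coordinates of the count table, the chaperone genes are HSPA5 (ENSSSCG00000005601, chr1:265930045-265934904, minus strand), HSP90B1 (ENSSSCG00000000849, chr5:80511507-80531005, minus), the cochaperone DNAJB9 (ENSSSCG00000016653, chr18:36549544-36584130, minus) and the disulfide isomerase PDIA4 (ENSSSCG00000015453, chr9:109252010-109280249, plus). The regulators are XBP1 (ENSSSCG00000030996, chr14:46008377-46017036, minus) and ATF6 (ENSSSCG00000006346, chr4:88591280-88818372, minus). HERPUD1, a membrane component of ER-associated degradation, is ENSSSCG00000040663 (chr6:18844576-18913424, plus). The ER-resident and secreted proteins CRELD2 (ENSSSCG00000000981, chr5:709045-716927, minus) and MANF (ENSSSCG00000032914, chr13:33658255-33662261, plus) complete the set. The annotated spans of HERPUD1 and ATF6 overlap those of SLC12A3 and DUSP12 on the same strand, that of HSP90B1 overlaps C12orf73 on the opposite strand, and that of HSPA5 holds a snoRNA. How reads in those overlaps were assigned is not given in the sources used here, so the counts of these genes are less certain.

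The 250 bases before each RefSeq gene start were searched on both strands for the ER stress response element (ERSE, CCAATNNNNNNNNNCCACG), its variant ERSE-II (ATTGGNCCACG) and the core TGACGTGG of the unfolded protein response element. An ERSE was found in 14 of 19572 windows of protein-coding genes (0.072%) and an ERSE-II in 17 (0.087%). Of the 10 listed genes, 3 held an ERSE (HSP90B1, XBP1 and CRELD2) and 2 held an ERSE-II (MANF and SDF2L1). The core TGACGTGG was found in 106 windows (0.542%) and in 0 of the 10. The CCAAT box, which is contained in the ERSE, was found in 31.9% of all windows and in 8 of the 10. The 5 windows with a match are shown because they carry the element by which this gene set is known to be controlled, with the matched letters in capitals (RefSeq sequence, Sscrofa11.1, 5′ to 3′ on the strand of the gene).
HSP90B1, chr5:80531017-80531266, minus strand: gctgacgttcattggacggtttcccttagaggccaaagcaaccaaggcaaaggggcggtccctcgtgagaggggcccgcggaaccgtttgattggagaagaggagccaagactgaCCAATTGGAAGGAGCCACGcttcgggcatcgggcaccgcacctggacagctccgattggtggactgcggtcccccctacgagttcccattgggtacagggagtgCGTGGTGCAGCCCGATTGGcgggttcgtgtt
XBP1, chr14:46016527-46016776, minus strand: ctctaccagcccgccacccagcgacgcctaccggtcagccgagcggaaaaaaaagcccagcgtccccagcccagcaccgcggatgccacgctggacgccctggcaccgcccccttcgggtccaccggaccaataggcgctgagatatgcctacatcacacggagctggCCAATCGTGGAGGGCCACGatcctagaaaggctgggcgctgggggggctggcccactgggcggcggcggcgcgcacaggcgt
CRELD2, chr5:716767-717016, minus strand: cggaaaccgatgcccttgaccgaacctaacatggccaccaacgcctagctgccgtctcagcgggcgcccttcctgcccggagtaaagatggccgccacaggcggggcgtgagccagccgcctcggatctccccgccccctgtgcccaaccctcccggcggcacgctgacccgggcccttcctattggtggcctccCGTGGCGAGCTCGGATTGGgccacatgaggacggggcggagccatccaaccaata
MANF, chr13:33658029-33658278, plus strand: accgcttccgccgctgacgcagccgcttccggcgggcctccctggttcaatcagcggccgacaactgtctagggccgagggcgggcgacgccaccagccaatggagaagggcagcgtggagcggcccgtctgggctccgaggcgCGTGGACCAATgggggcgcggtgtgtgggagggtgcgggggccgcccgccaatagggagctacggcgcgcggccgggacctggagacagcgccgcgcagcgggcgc
SDF2L1, chr14:50251637-50251886, minus strand: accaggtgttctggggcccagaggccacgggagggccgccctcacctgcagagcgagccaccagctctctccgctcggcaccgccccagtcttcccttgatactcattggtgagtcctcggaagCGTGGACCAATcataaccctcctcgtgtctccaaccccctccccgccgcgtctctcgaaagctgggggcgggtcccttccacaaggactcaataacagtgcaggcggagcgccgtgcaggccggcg
HSP90B1 held 2 matches, at −135 to −117 on the strand of the gene and at −31 to −13 on the opposite strand, counted from the gene start. The XBP1 match lay at −82 to −64 on the strand of the gene, and those of CRELD2 (−55 to −37), MANF (−106 to −96) and SDF2L1 (−126 to −116) on the opposite strand.

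The window of HSPA5 is shown in addition, because HSPA5 had the highest mean level of the set in GS lungs and passed the test at both times there. It held 5 CCAAT boxes (4 on the strand of the gene and 1 on the opposite strand) and no ERSE or ERSE-II, so it has no capitals.
HSPA5, chr1:265934960-265935209, minus strand: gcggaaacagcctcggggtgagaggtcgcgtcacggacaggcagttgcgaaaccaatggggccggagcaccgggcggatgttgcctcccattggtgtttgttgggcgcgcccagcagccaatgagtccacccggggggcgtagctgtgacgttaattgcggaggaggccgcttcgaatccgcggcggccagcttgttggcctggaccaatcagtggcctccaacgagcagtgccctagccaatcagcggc
DNAJB9, HERPUD1, PDIA4 and ATF6 also held no ERSE or ERSE-II in this window. The RefSeq start lies 56595 bases from the start in the count table for HERPUD1, 12216 for ATF6, 8840 for PDIA4 and 510 for XBP1, so the window depends on the annotation for these genes. A match is a description of letters, and no match says only that these letters are not in this window. Among the other pathway genes, an ERSE or ERSE-II was found for CALR, CANX, PDIA6, DERL3, HYOU1, SEL1L and CREB3L2.

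Total counts on genes ranged from 26335584 to 67522703 per GS library and from 14650700 to 21820935 per PD library, and no PD library reached the depth of a GS library. Group, sequencing depth and any library batch therefore cannot be told apart. The biological coefficient of variation, the spread between biopsies that remains after counting error and the terms for pig and time, was 0.259 in GS and 0.489 in PD. The biopsies of PD pig 2 at 12h and PD pig 4 at 0h stood apart. Their mean correlations to the other PD libraries were 0.855 and 0.859, against 0.905 to 0.927 for the remaining PD libraries. GS libraries had mean correlations of 0.930 to 0.952 to the other GS libraries. Values without the PD biopsies that stood apart are given beside several of the genes they move. Others are given in the section on how the results depend on the processing. Levels below are CPM (counts scaled to the library total after TMM scaling), and levels between genes were compared only as CPM per kilobase of RefSeq exon sequence. The counts rest on the Ensembl genes of the count table, whose spans differ from RefSeq for genes such as DNAJB9, HERPUD1 and ATF6. The order of these genes by level is therefore less certain.

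Before perfusion, the GS lungs had most of their signal in the chaperones. The level of HSPA5 at 0h was 182 CPM per kilobase (mean, n = 5) and that of HSP90B1 was 167, and their ranges overlapped. XBP1 (86.2 CPM per kilobase), PDIA4 (73.6) and HERPUD1 (71.6) followed, below the range of HSP90B1, and each overlapped with the next of these 3. MANF (38.0), ATF6 (14.6) and CRELD2 (8.52) were each below the range of the gene before, and CRELD2 overlapped with DNAJB9 (6.50). At 6h HSPA5 (383 CPM per kilobase) was above HSP90B1 (199) without overlap, whereas at 12h the ranges of HSPA5 (mean 450.1) and HSP90B1 (mean 218) overlapped because of pig 9. In PD at 0h the order was HSP90B1 (307 CPM per kilobase), HSPA5 (215), PDIA4 (161), XBP1 (159) and MANF (154), each overlapping with the next.

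**Figure D1:**
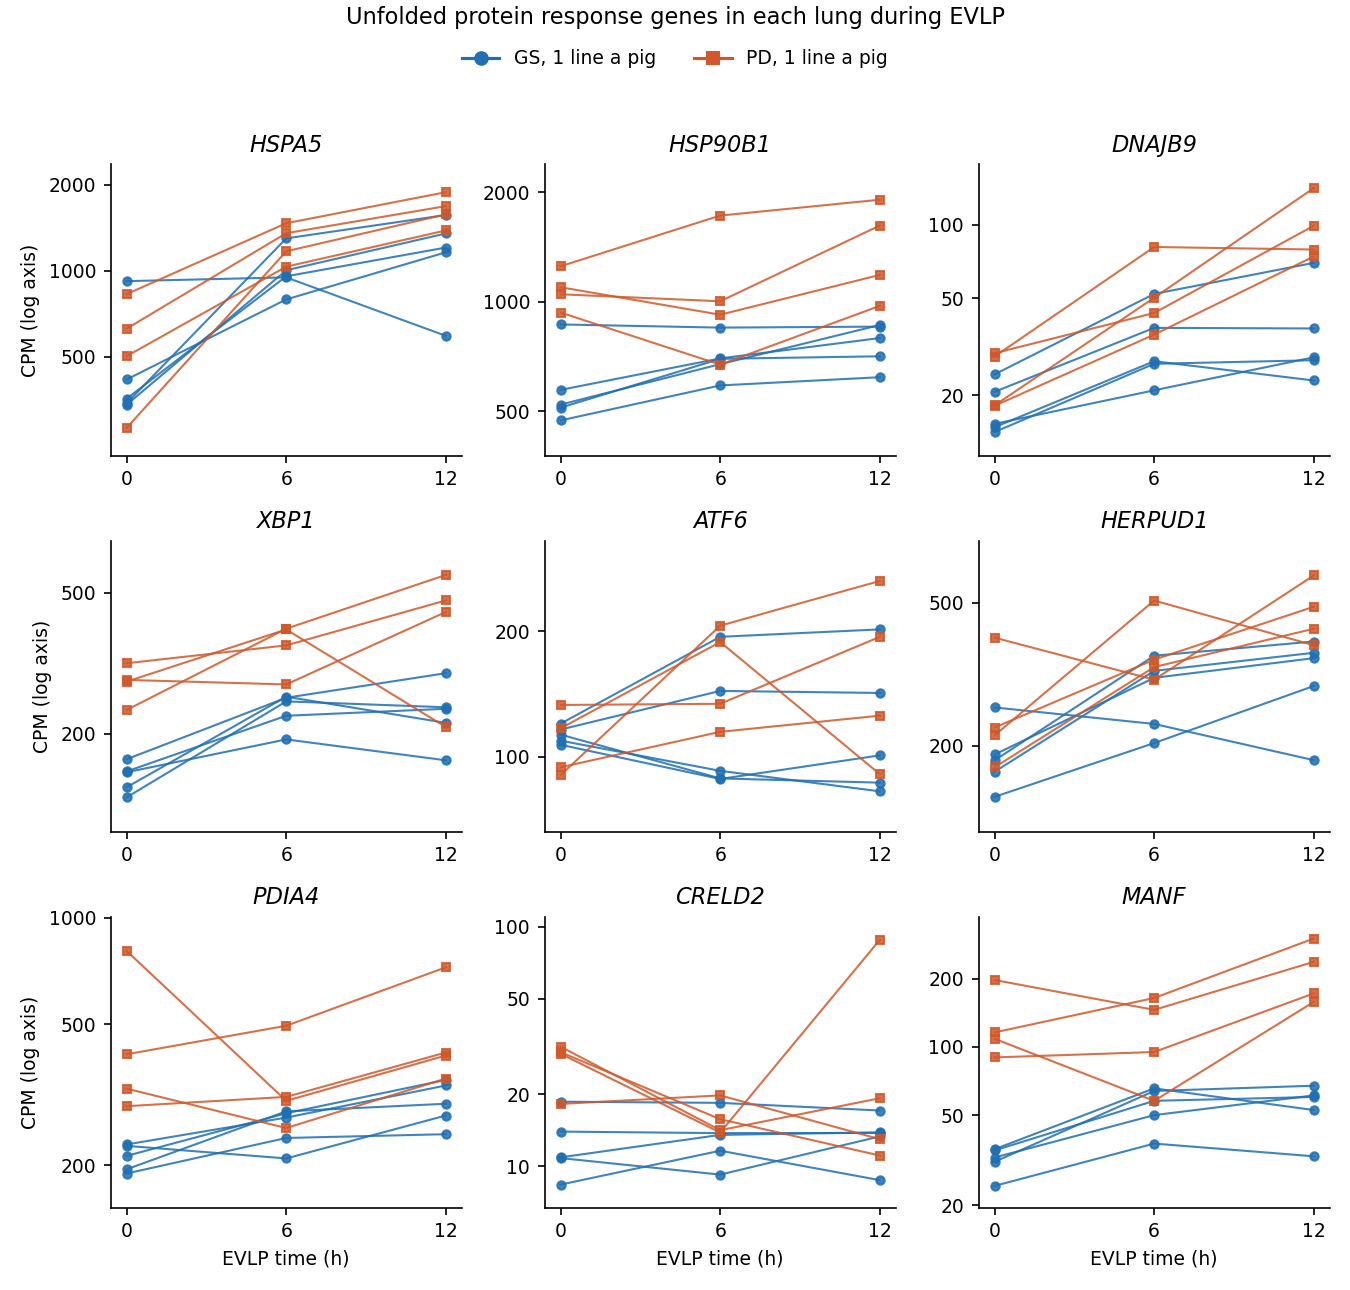
Level of each of the 9 genes in every biopsy (CPM, log axis, scaled separately for each gene) against EVLP time, with 1 line a pig, GS in blue circles and PD in orange squares. HSPA5 and DNAJB9 lie higher at 12h than at 0h in every lung except HSPA5 in GS pig 9 (919 CPM at 0h and 592 at 12h), and the single high CRELD2 value at 12h is PD pig 2 (88.1 CPM).

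The first question was how these genes moved during standard EVLP. In GS, HSPA5 rose at 6h and 12h by more than 2-fold, and DNAJB9, MANF and XBP1 passed the adjusted p at both times with a smaller change. At 12h the chaperone HSP90B1, PDIA4 and HERPUD1 also passed the adjusted p, each below 2-fold, while ATF6 and CRELD2 did not pass. A gene was called when its adjusted p (edgeR quasi-likelihood test, Benjamini-Hochberg over all genes) was under 0.05 and its change at least 2-fold. By this rule 1 of 9 genes was called higher at 6h, against 5.5% of all 18594 genes tested, and without the fold threshold 4 of 9, against 13.6%. At 12h 1 of 9 was called higher, against 6.99% of all genes, and 7 of 9 without the fold threshold, against 17.6%. The median log2 fold change of the 9 genes was 0.55 at 6h and 0.55 at 12h, against −0.05 and −0.08 over all genes. In bulk tissue, a change in the number of cells of a type and a change in RNA per cell cannot be told apart.

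HSPA5, the main ER chaperone, was at 919, 417, 340.1, 357 and 344 CPM at 0h in GS pigs 9, 17, 44, 55 and 77. At 6h the same lungs had 947, 794, 1003, 956 and 1297 CPM, and at 12h 592, 1159, 1349, 1205 and 1565 CPM. Pig 9 started far above the other lungs, hardly moved to 6h and was lower at 12h, whereas in the other 4 lungs every later value was above every 0h value. Its fitted log2 fold change was 1.08 ± 0.30 (SE, n = 5, edgeR adjusted p = 0.0187) at 6h and 1.32 ± 0.31 (edgeR adjusted p = 0.0055) at 12h. Without pig 9 the log2 fold changes were 1.47 and 1.85. The call at 6h was lost when any of pigs 17, 44, 55 or 77 was left out (edgeR adjusted p = 0.0513 to 0.0829), and the call at 12h was kept in each of these fits.

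DNAJB9 (ERdj4) is an ER cochaperone that works with HSPA5 and on IRE1. It was at 20.7, 24.4, 14.1, 15.3 and 14.8 CPM at 0h, at 37.8, 52.1, 26.9, 21.0 and 27.6 CPM at 6h and at 37.6, 69.8, 27.9, 28.6 and 23.0 CPM at 12h in the GS pigs in the same order. Each of the 5 lungs was higher than its own 0h value at both times. For DNAJB9 the log2 fold change was 0.83 ± 0.14 (SE, n = 5, edgeR adjusted p = 0.0014) at 6h and 0.95 ± 0.14 (edgeR adjusted p = 0.000392) at 12h, a 1.93-fold change that lies just below the fold threshold. With no replicate block the 6h value did not pass (0.88, edgeR adjusted p = 0.0907). It was called at 12h without pig 9 or without pig 77, with log2 fold changes of 1.02 and 1.04.

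MANF, a small secreted protein released under ER stress, was at 24.3, 31.1, 34.9, 32.5 and 35.3 CPM at 0h and at 37.4, 63.9, 57.8, 49.99 and 65.65 CPM at 6h in GS. The 6h and 0h values did not overlap. At 12h MANF was at 32.9, 67.4, 60.1, 61.1 and 52.6 CPM, higher than at 0h in 5 of 5 lungs. For MANF the log2 fold change was 0.76 ± 0.12 (SE, n = 5, edgeR adjusted p = 0.000994) at 6h and 0.73 ± 0.12 (edgeR adjusted p = 0.00072) at 12h.

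XBP1 had 156, 169.7, 133, 157 and 141 CPM at 0h, 193, 253, 247, 225 and 255 CPM at 6h and 169, 296, 238, 235 and 215 CPM at 12h in GS. The values at 6h lay above all those at 0h, and at 12h pig 9 was back within the 0h range. For XBP1 the log2 fold change was 0.61 ± 0.12 (SE, n = 5, edgeR adjusted p = 0.00299) at 6h and 0.55 ± 0.12 (edgeR adjusted p = 0.00333) at 12h.

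HERPUD1 in GS had the same direction as HSPA5 in each lung at 12h. It went from 256, 145, 169.6, 189 and 182 CPM at 0h to 183, 293, 363, 351 and 389.95 CPM at 12h, so that it was lower in pig 9 and higher in the other 4. The log2 fold change at 12h was 0.69 ± 0.20 (SE, n = 5, edgeR adjusted p = 0.0149), and without pig 9 it was 1.03 and HERPUD1 was called. Without pig 17, 44, 55 or 77 it did not pass (edgeR adjusted p = 0.0636 to 0.0774), nor did it in 1 fit of all libraries (0.053 by the same test). At 6h its log2 fold change was 0.55 ± 0.19 (edgeR adjusted p = 0.0504), just outside the threshold.

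The other chaperones moved little. HSP90B1, the ER form of the HSP90 family, had a log2 fold change of 0.26 ± 0.11 at 6h (SE, n = 5, edgeR adjusted p = 0.0955) and 0.37 ± 0.11 at 12h (edgeR adjusted p = 0.0183) in GS. PDIA4 was at 227, 195, 213, 229 and 189.6 CPM at 0h and at 276, 298, 348, 336 and 245 CPM at 12h, higher in 5 of 5 lungs (log2 fold change 0.47 ± 0.11, edgeR adjusted p = 0.00541). Its 0h and 12h ranges did not overlap. CRELD2, an ER-resident disulfide isomerase-like protein, stayed between 8.40 and 18.6 CPM in all 15 GS libraries, with log2 fold changes of 0.10 ± 0.15 and 0.08 ± 0.15 at 6h and 12h.

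ATF6 behaved differently from pig to pig in GS. It was at 120.1, 116, 109, 107 and 113 CPM at 0h, and at 202, 142, 82.7, 100.8 and 86.7 CPM at 12h. It was thus higher at 12h in pigs 9 and 17 and lower in the other 3, with a log2 fold change of −0.02 ± 0.16 (SE, n = 5, edgeR adjusted p = 0.932). The sign of this value near 0 depended on the settings.

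Between 6h and 12h in GS, 0 of 9 genes were called, against 0% of all 18594 genes at an edgeR adjusted p under 0.05. At an unadjusted p under 0.05 the counts were 0 of 9 and 882 of 18594 genes, and DESeq2 called 0 of 9 and 2 genes in all. The 95% interval of the log2 change from 6h to 12h was −0.34 to 0.82 for HSPA5 and −0.15 to 0.38 for DNAJB9.

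**Figure D2:**
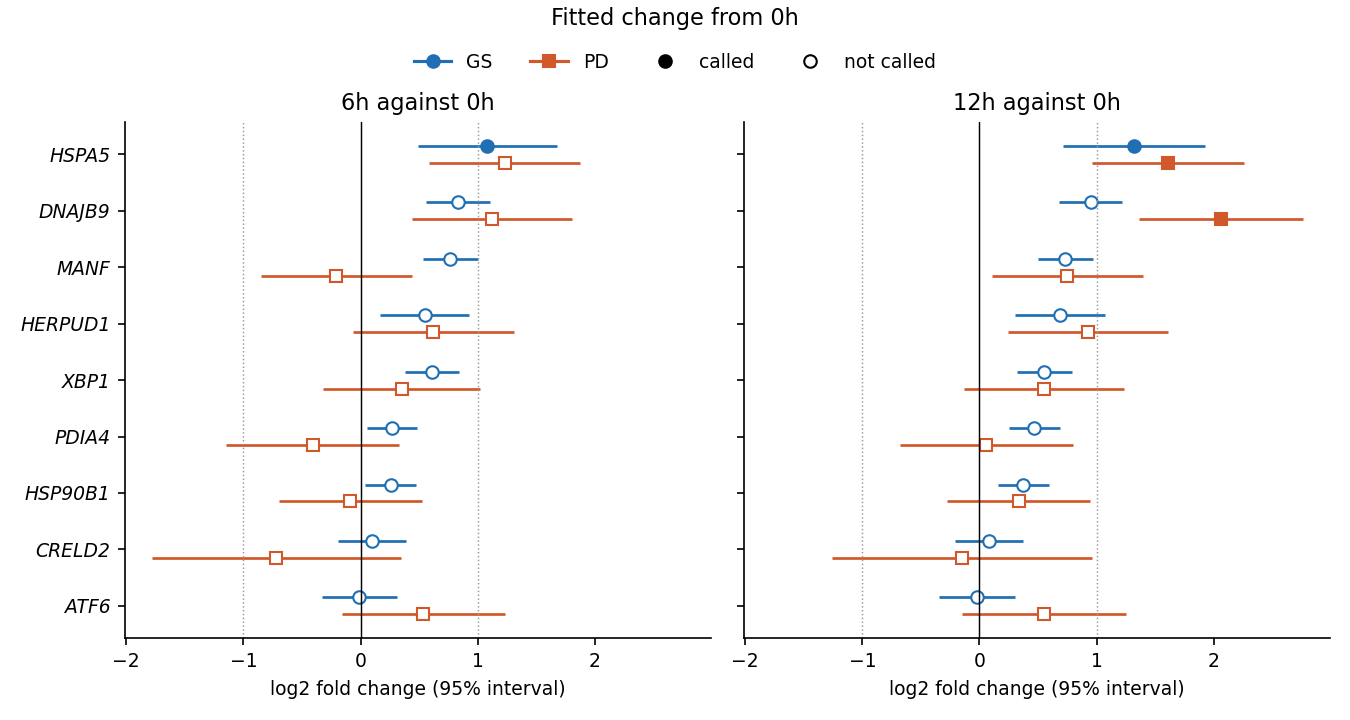
Fitted log2 fold change from 0h with its 95% interval for the 9 genes at 6h (left) and 12h (right), GS in blue circles and PD in orange squares, filled where the gene was called and with dotted lines at a 2-fold change. HSPA5 in GS is filled at both times, and in PD HSPA5 (1.61) and DNAJB9 (2.06) are filled at 12h, where the PD intervals are wider than those of GS.

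In PD lungs the same question gave wider intervals, since 4 pigs entered and the residual spread was larger. HSPA5 and DNAJB9 were called at 12h and had positive fitted values at 6h that did not pass, and MANF, HERPUD1 and XBP1 had positive fitted values at 12h that did not pass. At 6h 0 of 9 genes were called higher, against 0.135% of all 15545 genes tested in PD (edgeR), and 2 of 9 had an unadjusted p under 0.05, against 1463 of 15545 genes (9.41%). At 12h 2 of 9 were called higher, against 3.22% of all genes. The median log2 fold change of the 9 genes in PD was 0.35 at 6h and 0.55 at 12h, against −0.02 and −0.05 over all genes.

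HSPA5 in PD pigs 2, 3, 4 and 5 was at 828, 627, 282 and 503 CPM at 0h, at 1465, 1352, 1169 and 1033 CPM at 6h and at 1881, 1681, 1574 and 1383 CPM at 12h. All values after 0h lay above all those at 0h, and each of the 4 lungs was higher at 12h than at 6h. The log2 fold change was 1.23 ± 0.33 (SE, n = 4, edgeR adjusted p = 0.212) at 6h and 1.61 ± 0.33 (edgeR adjusted p = 0.0252) at 12h. Without the biopsy of pig 4 at 0h it was 1.41 at 12h and no longer called (edgeR adjusted p = 0.0588). At 6h HSPA5 was called by DESeq2 and with the trend of exon length and GC content removed (log2 fold change 1.21, edgeR adjusted p = 0.0307).

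DNAJB9 in PD was at 28.8, 29.8, 18.2 and 18.115 CPM at 0h, at 81.1, 43.5, 50.3 and 35.5 CPM at 6h and at 79.2, 99.2, 141 and 74.2 CPM at 12h. All values at 6h and 12h lay above all those at 0h, and 3 of 4 lungs were higher at 12h than at 6h. The log2 fold change was 1.12 ± 0.35 (SE, n = 4, edgeR adjusted p = 0.301) at 6h and 2.06 ± 0.36 (edgeR adjusted p = 0.0176) at 12h, a 4.18-fold change. Both calls at 12h, of HSPA5 and of DNAJB9, were lost when pig 3, 4 or 5 was left out (edgeR adjusted p = 0.0517 to 0.277) and kept without pig 2. They were also lost when only the 0h and 12h biopsies were fitted (edgeR adjusted p = 0.13 for HSPA5 and 0.11 for DNAJB9). Without the biopsy of pig 4 at 0h DNAJB9 stayed called (log2 fold change 1.90).

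MANF in PD went through 116, 89.9, 198 and 109 CPM at 0h, 165, 94.999, 146 and 57.8 CPM at 6h and 301, 172, 238 and 158 CPM at 12h. It was higher at 6h in 2 of 4 lungs and higher at 12h than at 0h in 4 of 4. The log2 fold change was −0.21 ± 0.33 (SE, n = 4, edgeR adjusted p = 0.82) at 6h and 0.75 ± 0.33 (edgeR adjusted p = 0.187) at 12h.

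XBP1 in PD was at 281, 316, 234 and 284 CPM at 0h and at 209, 475, 561 and 441 CPM at 12h. Pig 2 was lower at 12h and the other 3 lungs were higher. HERPUD1 was at 214, 225, 399.6 and 175 CPM at 0h and at 381, 487, 595 and 423 CPM at 12h, higher in 4 of 4 lungs (log2 fold change 0.93 ± 0.35, edgeR adjusted p = 0.131). Without the biopsy of pig 2 at 12h HERPUD1 was called (1.04, edgeR adjusted p = 0.0374).

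CRELD2 and the SDF2L1 entry had their highest values in 1 PD library at 12h, and at 6h each was below its 0h value in 3 of 4 lungs. CRELD2 was at 29.5, 18.2, 29.9 and 31.6 CPM at 0h, at 13.8, 19.8, 15.7 and 14.2 CPM at 6h and at 88.1, 12.99, 11.102 and 19.2 CPM at 12h, so that pig 2 at 12h was the highest of all 27 libraries. Its log2 fold change was −0.72 ± 0.54 at 6h (SE, n = 4, edgeR adjusted p = 0.661) and −0.15 ± 0.57 at 12h (edgeR adjusted p = 0.902), and without the 12h biopsy of pig 2 the 12h value was −0.96 ± 0.36 (edgeR adjusted p = 0.0615). With a pig left out the CRELD2 value at 12h ranged from −0.92 to 0.30, so its direction depended on the lungs used. The SDF2L1 entry, an ER cochaperone, was at 10.3, 5.90, 17.7 and 10.7 CPM at 0h, at 5.56, 6.56, 4.99 and 5.51 CPM at 6h and at 54.8, 10.4, 6.83 and 9.75 CPM at 12h, with the same library on top. For this entry the log2 fold changes were −0.94 ± 0.59 at 6h and 0.49 ± 0.62 at 12h (edgeR adjusted p = 0.629 and 0.675), and the 12h value was −0.31 without that library. That library had the lowest total of all (14650700 counts) and the fewest genes detected (18979), and 1.65% of its counts were mitochondrial, against 4.97% to 11.6% in the other PD libraries. The same library also held the highest values of all 27 libraries for HSPA5 (1881 CPM), HSP90B1 (1909 CPM) and MANF (301 CPM). Its PDIA4 level (724 CPM) was the highest of PD at 12h, and its XBP1, ATF6 and HERPUD1 levels were the lowest. Whether its makeup bears on these values was not tested.

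PDIA4, HSP90B1 and ATF6 in PD differed between lungs. PDIA4 in PD was at 411, 294, 806 and 329 CPM at 0h and at 724, 416, 408 and 351 CPM at 12h, with the highest 0h value in pig 4, whose 0h biopsy stood apart. Its log2 fold change was −0.41 ± 0.38 at 6h and 0.06 ± 0.38 at 12h (SE, n = 4, edgeR adjusted p = 0.707 and 0.943), and without that biopsy it was 0.034 and 0.50. With a pig left out the PDIA4 value at 12h ranged from −0.20 to 0.49. HSP90B1 was higher at 12h than at 0h in 4 of 4 lungs (log2 fold change 0.34 ± 0.31, edgeR adjusted p = 0.548), and ATF6 in 3 of 4 (0.55 ± 0.36, edgeR adjusted p = 0.37). With a pig left out the ATF6 value at 12h ranged from 0.27 to 0.79. Between 6h and 12h in PD, 0 of 9 genes were called, against 0% of all 15545 genes (edgeR), and at an unadjusted p under 0.05 the counts were 2 of 9 (DNAJB9 and MANF) and 1562 of 15545 genes. DESeq2 called 0 of 9 and 235 genes in all.

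The second question was whether the change from 0h differed between PD and GS. None of the 9 genes passed at either time. The interaction of group and time called 0 of 9 genes at 6h and at 12h, against 0% of all 17884 genes at both times (edgeR adjusted p under 0.05), and 1 of 9 at each time had an unadjusted p under 0.05, against 1046 and 1069 of all genes. DESeq2 called 0 of 9 at both times and 7 and 15 genes in all. An exact two-sided permutation test over the pigs had 126 ways to divide them and a smallest possible p of 0.00794. It gave 1762 genes at 6h and 1064 at 12h at an unadjusted p under 0.05. Among them were MANF and CRELD2 (exact permutation p = 0.0476) at 6h and DNAJB9 at 12h. No gene passed correction over 17884 genes in this test. With so few splits a gene can pass only where very many genes share the smallest p, so this test says nothing on the count.

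**Figure D3:**
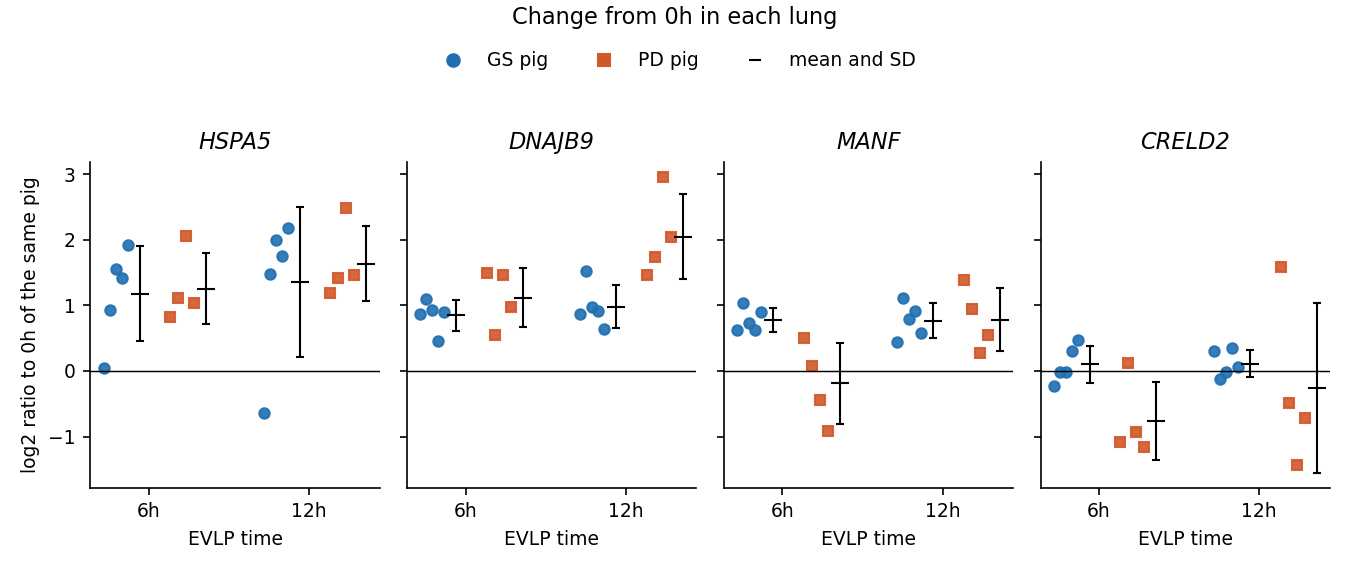
Log2 ratio to the 0h biopsy of the same pig at 6h and 12h for HSPA5, DNAJB9, MANF and CRELD2, with 1 point a pig (GS blue circles, PD orange squares) and the mean and SD in black. The MANF ratios at 6h do not overlap between groups (GS 0.62 to 1.04, PD −0.91 to 0.51), and the DNAJB9 ratios at 12h overlap only between the highest GS and the lowest PD lungs.

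MANF had the smallest unadjusted p at 6h. Its log2 ratio to 0h was 0.78 ± 0.18 in GS (SD, n = 5) and −0.19 ± 0.62 in PD (SD, n = 4), and the ratios of the groups did not overlap (exact permutation p = 0.00794, adjusted over all genes 0.34). In the edgeR interaction the difference was −0.98 ± 0.30 (SE, adjusted p = 0.783). It passed only when PD pig 2 was left out (−1.21, edgeR adjusted p = 0.0345). The change from 0h to 6h also followed exon length across genes, with a median of −0.42 in PD and 0.07 in GS over genes under 1000 bases, to which MANF belongs. With the length and GC trend removed the MANF difference was −0.71 ± 0.21 (edgeR adjusted p = 0.664). At 12h the mean ratios of MANF were 0.76 in GS and 0.78 in PD, with a difference of −0.01 and a 95% interval of −0.58 to 0.57 in the edgeR fit.

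DNAJB9 had the smallest unadjusted p at 12h, with a log2 ratio of 0.98 ± 0.33 in GS (SD, n = 5) and 2.05 ± 0.65 in PD (SD, n = 4). The ranges were 0.64 to 1.52 in GS and 1.46 to 2.96 in PD, so that they overlapped at their ends (exact permutation p = 0.0238, adjusted over all genes 0.666). The edgeR difference was 1.08 ± 0.34 (SE, adjusted p = 0.677). For HSPA5, which was called in both groups at 12h, the difference was 0.25 with a 95% interval of −0.63 to 1.14, which includes a larger as well as a smaller change in PD. CRELD2 (−0.82 ± 0.52) and PDIA4 (−0.68 ± 0.33) had negative differences at 6h with edgeR adjusted p = 0.783 each. Without the 0h biopsy of PD pig 4 the PDIA4 difference was −0.29, and with the trend removed the CRELD2 difference was −0.30.

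The third question was where the groups started. At 0h, before any perfusion or dialysis, 5 of the 9 genes were higher in PD than in GS, against 21.3% of all 16477 genes called higher in PD (edgeR adjusted p under 0.05). They were MANF, PDIA4, CRELD2, XBP1 and HSP90B1. The groups did not overlap at 0h for 4 of 9 genes (MANF, PDIA4, XBP1 and HSP90B1), against 15.2% of 17884 genes. At 6h this held for XBP1 alone (1 of 9, against 10.9% of genes) and at 12h for HSP90B1, DNAJB9, PDIA4 and MANF (4 of 9, against 9.7%).

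MANF at 0h ranged from 24.3 to 35.3 CPM in GS and from 89.9 to 198 CPM in PD, a log2 difference of 2.07 ± 0.24 (SE, edgeR adjusted p = 6.69e-05). The lowest PD lung was thus above the highest GS lung by more than the whole GS range. PDIA4 ranged from 189.6 to 229 CPM in GS and from 294 to 806 CPM in PD (log2 difference 1.18 ± 0.29, edgeR adjusted p = 0.00631). The highest PDIA4 value was that of PD pig 4, and without this pig the difference was 0.75 ± 0.17 (edgeR adjusted p = 0.00444). CRELD2 ranged from 8.40 to 18.6 CPM in GS and from 18.2 to 31.6 CPM in PD, where pig 3 alone fell within the GS range (1.17 ± 0.26, edgeR adjusted p = 0.00413). XBP1 (0.92 ± 0.17, edgeR adjusted p = 0.00135) and HSP90B1 (0.92 ± 0.23, edgeR adjusted p = 0.00763) differed less. The SDF2L1 entry was also higher in PD (1.41 ± 0.32, edgeR adjusted p = 0.00417). HSPA5 (0.27 ± 0.37), DNAJB9 (0.45 ± 0.25, and −0.23 with the length and GC trend removed), HERPUD1 (0.47 ± 0.27) and ATF6 (−0.01 ± 0.17) did not pass. With a pig left out the difference ranged from 0.023 to 0.66 for HSPA5 and from 0.16 to 0.62 for HERPUD1.

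This starting difference moved with gene length across all genes. The median log2 difference at 0h, PD minus GS, was 1.37 over 610 genes with under 1000 bases of exon sequence and −0.53 over 1708 genes with 8000 or more, and 67.2% and 7.38% of these genes were called higher in PD. MANF has 832 exon bases, the SDF2L1 entry 881, CRELD2 1472, XBP1 1756, PDIA4 2859 and HSP90B1 3528. With the trend of length and GC content removed, the log2 difference of MANF was 0.77 (edgeR adjusted p = 0.00846), that of CRELD2 0.79 (0.0246 by the same test) and that of HSP90B1 0.63 (0.0257). PDIA4 kept 1.18 (edgeR adjusted p = 0.00572), whereas XBP1 (0.38, edgeR adjusted p = 0.074) and the SDF2L1 entry (0.50, edgeR adjusted p = 0.0818) no longer passed. Leaving out any single pig left all 5 genes called without this correction.

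**Figure D4:**
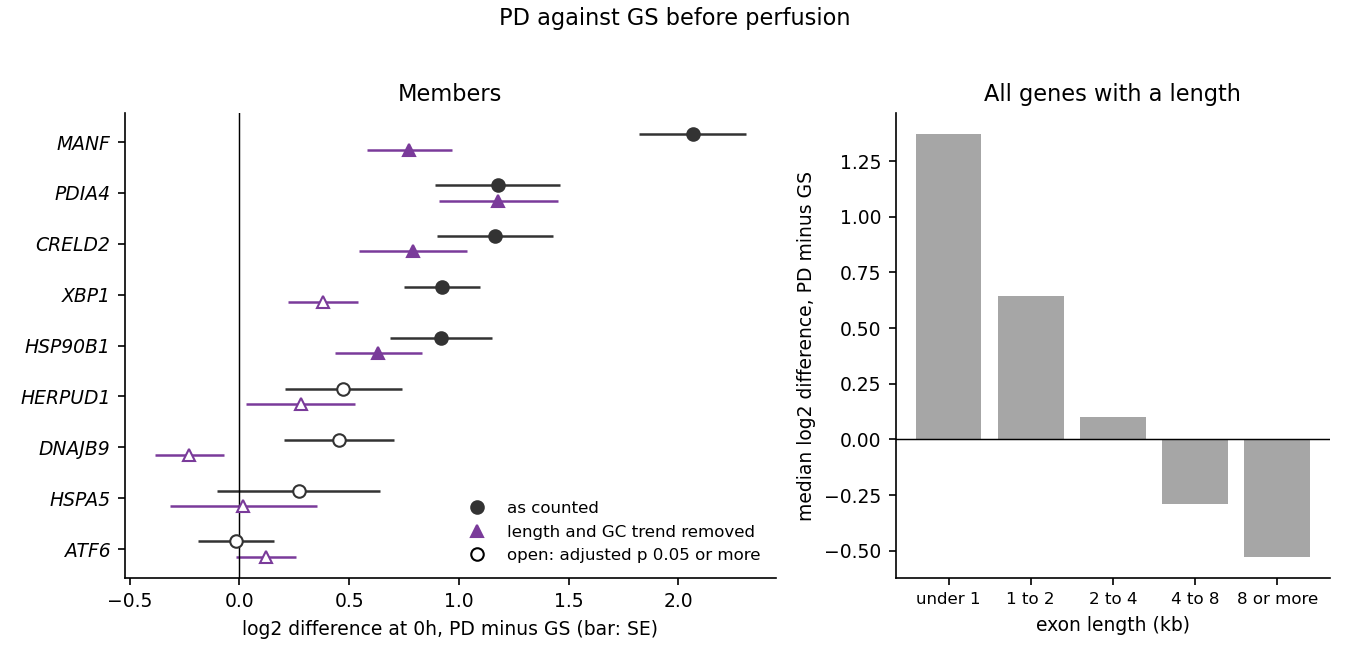
Left, log2 difference of PD minus GS at 0h with its SE for the 9 genes, as counted (circles) and with the exon length and GC trend removed (triangles), open where the edgeR adjusted p is 0.05 or more. Right, the median of the same difference over all genes with a RefSeq length, by exon length in kilobases, which goes from 1.37 for the shortest genes to −0.53 for the longest.

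Markers of cell types were compared at 0h, where 21.3% of all genes were called higher in PD and 19.3% lower (21.4% and 18.1% with the length and GC trend removed). The summed level of 6 alveolar type 2 markers found of 7 listed was 6918 to 9625 CPM in GS and 26620 to 78207 CPM in PD, and 2 of the 6 were called higher in PD and 1 lower. SFTPC, which was higher in PD, made up most of the sum there (19106 to 74816 CPM). In GS SFTPC was at 2698 to 4559 CPM and SFTPA1 at 2096 to 3634 CPM. SFTPD was the other higher gene, SFTPB was lower in PD, and SFTPA1, ABCA3 and NAPSA overlapped. The summed level of 6 plasma cell markers was 254 to 421 CPM in GS and 554 to 2193 CPM in PD (3 higher, 2 lower), most of it JCHAIN (131 to 268 and 433 to 2080 CPM), that of 6 airway secretory markers 229 to 1135 and 979.7 to 4483 CPM (2 higher) and that of 4 neutrophil markers 149 to 395 and 624 to 1245 CPM (2 higher, 1 lower). Endothelial, macrophage and fibroblast markers had 1, 0 and 2 genes higher and 2, 1 and 1 lower. With the length and GC trend removed, the counts higher and lower were 3 and 1 for alveolar type 2, 1 and 1 for plasma cell, 2 and 0 for airway secretory, 1 and 0 for neutrophil, 1 and 1 for endothelial, 0 and 3 for macrophage and 1 and 0 for fibroblast markers. No marker found was at 0 in all libraries of a group. The methods name 2 ways of storing biopsies and extracting RNA without saying which lung had which. The part of cell makeup, extraction and length in the 0h difference was not tested beyond the values given.

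The other genes of the pathway were taken from lists by role. Their counts stand against the shares over all genes given above, which for genes called higher are 13.6% (6h) and 17.6% (12h) in GS without the fold threshold, 5.5% and 6.99% with it, and 21.3% at 0h. For genes called lower these shares are 14.9%, 20.8%, 5.56%, 8.66% and 19.3%. In PD 0.135% (6h) and 3.22% (12h) of all genes were called higher. With the length and GC trend removed, 21.4% of 12677 genes were higher in PD at 0h and 18.1% lower. Among the sensors and their proteases, 7 of 8 were found (ERN1 was not). In GS 2 of 7 were called higher at both times, CREB3L1 (log2 fold change 1.10 ± 0.16 at 6h and 1.52 ± 0.16 at 12h) and EIF2AK3, which encodes PERK (1.01 ± 0.13 and 1.17 ± 0.13, SE, edgeR adjusted p = 0.000348 and 8.14e-05). Without the fold threshold 3 were higher at both times, and 2 at 6h and 3 at 12h were lower. In PD 0 of 7 were called. At 0h CREB3L1 (−1.89 ± 0.31) and CREB3L2 (−1.34 ± 0.29) were lower in PD, with 1 of 7 higher and 4 lower in all. With the length and GC trend removed, 1 was higher and 1 lower, so CREB3L1 and CREB3L2 were not both still called lower.

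Of 20 folding genes, 1 was called higher in GS at 6h and at 12h, and without the fold threshold 4 and 7 were higher and 1 and 3 lower. The called gene was HSPA13, an HSP70-family chaperone of microsomes (log2 fold change 2.06 ± 0.19 and 2.1997 ± 0.20, edgeR adjusted p = 0.000105 and 4.1e-05). In PD 0 of 20 were called, and the HSPA13 value at 12h was 3.19 ± 1.13 (edgeR adjusted p = 0.112). The oxidase ERO1A passed the adjusted p downwards in GS (−0.62 ± 0.20 and −0.61 ± 0.20). At 0h 10 of 20 were higher in PD and 3 lower, led by DNAJC10 (1.38 ± 0.28) and DNAJB11 (1.34 ± 0.26), and with the length and GC trend removed 5 were higher and 4 lower. The median over the 20 genes was 0.22 and 0.23 in GS and 0.04 and 0.21 in PD at 6h and 12h.

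Of 15 tested genes of ER-associated degradation, 1 was called higher in GS at both times and in PD at 12h. It was SELENOS, a membrane selenoprotein of the export complex, with log2 fold changes of 1.51 ± 0.14 at 6h and 1.72 ± 0.14 at 12h in GS and 1.87 ± 0.35 at 12h in PD (edgeR adjusted p = 0.000105, 3.71e-05 and 0.0192). UBE2J1, the ubiquitin-conjugating enzyme of this route, passed the adjusted p in GS with 0.48 ± 0.14 and 0.73 ± 0.14. At 0h 8 of 15 were higher in PD and 1 lower, led by the ubiquitin ligase SYVN1 (2.33 ± 0.33) and SELENOS (1.72 ± 0.21), and with the trend removed 7 were higher and 2 lower.

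The 13 genes of the translocation channel and signal peptidase, through which proteins enter the ER, had positive fitted values in GS for 11 of 13 at both times, and in PD for 8 at 6h and 10 at 12h. In GS 0 of 13 reached the fold threshold, but 7 at 6h and 9 at 12h passed the adjusted p upwards and none downwards, with medians of 0.41 and 0.56. SEC61G (0.67 ± 0.16 and 0.77 ± 0.16) and SEC61A1 (0.58 ± 0.15 and 0.70 ± 0.15) were the largest. In PD 0 of 13 were called. At 0h 11 of 13 were higher in PD, led by SEC61G (3.59 ± 0.32) and SEC61B (2.34 ± 0.16), and with the length and GC trend removed 9 were higher and 3 lower.

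The 7 genes of the PERK arm, in which translation is slowed and ATF4 is made, held the largest change of the pathway lists in GS and, at 12h, in PD. TRIB3, a pseudokinase induced by ATF4, had a log2 fold change of 3.02 ± 0.25 at 6h and 2.93 ± 0.25 at 12h in GS (edgeR adjusted p = 5.67e-05 and 3.71e-05), and of 2.73 ± 0.35 and 3.73 ± 0.36 in PD (edgeR adjusted p = 0.0176 and 0.0054). In GS 3 of 7 were called higher at both times, among them PPP1R15B, a phosphatase subunit that lifts the block of translation (1.35 ± 0.17 and 1.62 ± 0.17) and ATF4 (1.29 ± 0.19 and 1.40 ± 0.19). In PD 1 of 7 was called higher at 6h and 3 of 7 at 12h, namely TRIB3, ATF4 (1.94 ± 0.38, edgeR adjusted p = 0.0212) and PPP1R15B (1.91 ± 0.32, edgeR adjusted p = 0.0176). DDIT3 (CHOP), the cell death factor of this arm, was at −0.93 ± 0.27 at 6h in GS (edgeR adjusted p = 0.0208, below 2-fold). At 12h in GS it was at −0.61 ± 0.27 (edgeR adjusted p = 0.0887), which did not pass. In PD it was at −0.04 ± 0.59 at 6h and −0.37 ± 0.61 at 12h (edgeR adjusted p = 0.985 and 0.756). Of the 7 genes, 6 had positive fitted values in PD at both times, so DDIT3 alone was negative there. In GS 4 were positive at 6h and 5 at 12h. The median over the 7 genes was 0.1818 and 0.1773 in GS and 1.591 and 1.2964 in PD at 6h and 12h. In the interaction, PD minus GS was positive for 5 of 7 at 6h and 7 of 7 at 12h, but 0 were called. At 0h DDIT3 was lower in PD (−1.70 ± 0.46), as was PPP1R15A (−1.56 ± 0.40). The counts of this list at 0h, 1 higher and 2 lower, were the same with the trend removed.

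**Figure D5:**
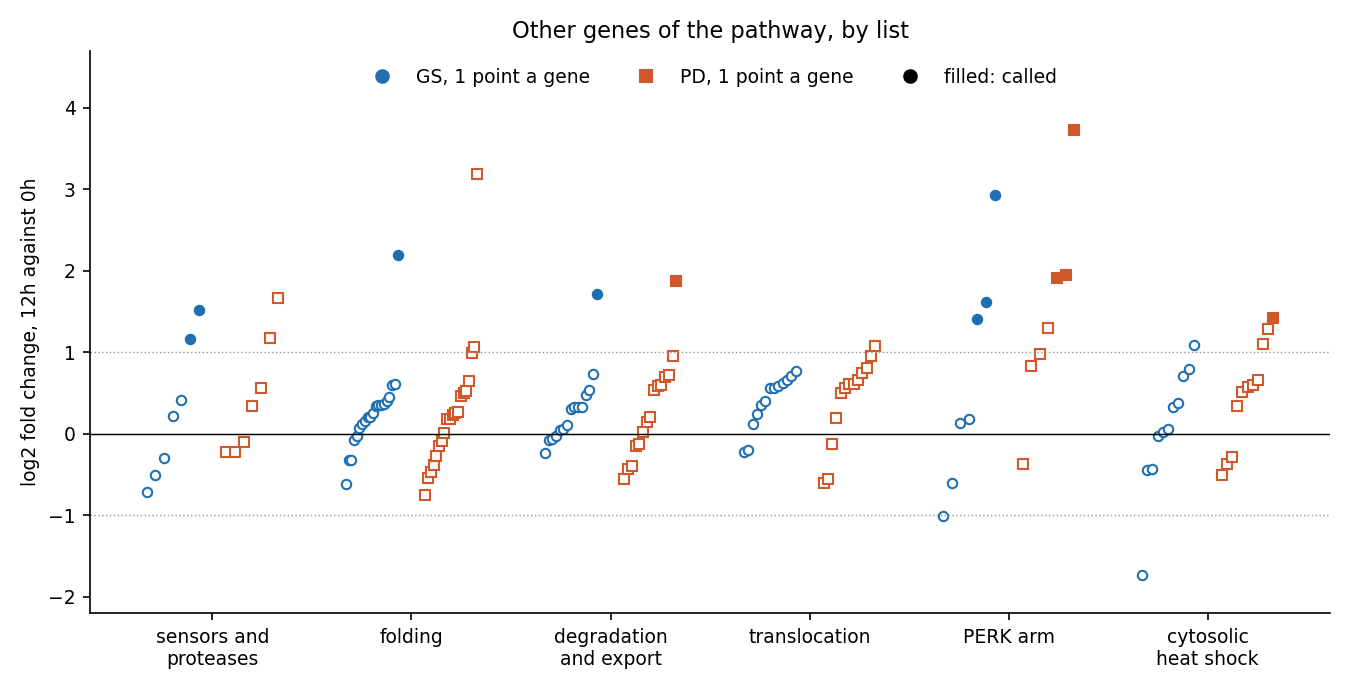
Log2 fold change at 12h against 0h of each gene tested in the pathway lists and in the cytosolic heat shock list. Each point is 1 gene (GS blue circles, PD orange squares), filled where called, with dotted lines at a 2-fold change. TRIB3 in the PERK arm is the highest in both groups (2.93 in GS and 3.73 in PD), and in that list 3 of 7 genes are filled in each group, against at most 2 in any other list.

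Across the 27 libraries, after subtraction of the mean of each pig, the genes with a symbol whose pattern was most like HSPA5 were ETS2 (Pearson r = 0.942), TGIF1 (0.939), PPP1R15B (0.938), DDX24 (0.934) and BHLHE40 (0.932), at ranks 2, 3, 4, 5 and 8 among 17883 other genes. The genes at the ranks between and before them have no symbol. The nearest of the 9 were DNAJB9 (r = 0.823, rank 467) and HERPUD1 (0.823, rank 470), followed by XBP1 (0.802), HSP90B1 (0.675) and MANF (0.592). ATF6 (0.265), PDIA4 (0.177) and CRELD2 (−0.195) were far from HSPA5. Among the pathway lists, UBE2J1, PPP1R15B and TRIB3 were in the top 100. Within the set, MANF and HSP90B1 had the highest correlation with each other (r = 0.827) and CRELD2 and ATF6 the lowest (−0.740). These are descriptions, since libraries of a time point share the time and libraries of a group share depth, and in CRELD2 the high library of PD pig 2 enters.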

How the data were processed

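Counts per gene came from the table the authors deposited, with 31908 Ensembl genes of Sscrofa11.1 in 27 libraries and 0 columns without a sample. The methods name a TruSeq stranded mRNA kit and alignment by TopHat2 2.0.14 to Ensembl release 101, and the submitters' processing notes add cutadapt 1.15 and featureCounts (Subread 1.6.0). The strand option and the treatment of multimapping reads are not given in the sources used here. Counts were used as deposited.

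GS and PD were modelled apart in edgeR 4.0.16 (under R 4.3.3 with limma 3.58.1) after TMM scaling and filterByExpr, with two-sided quasi-likelihood F tests (robust setting) and time and pig as terms. The 3 biopsies of a number come from 1 animal. Between biopsies of 1 pig, deviations from the time means had an average correlation of 0.517 (0.352 to 0.728) in GS and 0.116 (−0.215 to 0.42) in PD. The interaction used all 27 libraries, and 0h the 9 libraries at 0h. Adjusted p-values are Benjamini-Hochberg over all genes tested. Calls against 0h needed an adjusted p under 0.05 and 2-fold, other calls the adjusted p alone. Ratios used log2 CPM with a prior count of 0.5. The fits were also run on simulated data, but the outcome is not given here and no result above rests on it.

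The members, gene lists and the rule for named genes were chosen with earlier results of these data known. All members were named, and of each pathway list the 2 called genes with the largest change in a comparison. HSPA13 in PD, DDIT3 over time and SEC61A1, UBE2J1 and ERO1A, which passed without the fold threshold, were named after their values were seen. Also outside this rule were SEC61G, HSP90AB1 and HSPA4 in GS, which passed only without the fold threshold. The same holds for ATF4 in GS and PPP1R15B in PD, which were called but not among the 2 largest. Motifs were searched in 250 bases of RefSeq sequence (assembly Sscrofa11.1), and 13655 of 13667 genes compared (99.91%) overlapped the RefSeq gene of the same symbol. Alternatives were no replicate block, 2 time points, 1 fit of all libraries, DESeq2 1.42.0, its size factors, no filter, no fold threshold and each pig left out. Leaving out PD pig 2 at 12h or PD pig 4 at 0h, and removing the exon length and GC trend, were chosen after seeing the data. No 2 libraries were duplicates (smallest chi-square per degree of freedom 39.8). The biopsies of different pigs come from separate animals. Counting error is small at these depths, and the spread between biopsies and pigs sets the precision.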

Additional observations from a re-analysis of the deposited data

Results flagged for a closer look

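Of 90 groups of 4 or 5 lungs examined (each gene's level by group and time, and its ratio to 0h), 4 held a lung far from the others, and chance gives about 1 in 20. HSPA5 in GS pig 9 at 0h was at a log2 CPM of 9.84, against 8.41 to 8.70 in the other 4. The log2 ratio of HSPA5 at 12h to 0h in the same pig was −0.635, against 1.48 to 2.18. The log2 ratio of HERPUD1 at 12h to 0h was −0.486 in this pig, against 0.888 to 1.10. These 3 values share the 0h biopsy of pig 9. The 12h biopsy of this pig enters the ratios too, and had the lowest HSPA5 (592 CPM) and HERPUD1 (183 CPM) levels of GS at 12h. CRELD2 in PD pig 3 at 0h was at a log2 CPM of 4.19, against 4.88 to 4.98 in the other 3.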

How the results depend on the processing

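Of the 9 genes, the count called in GS at 6h (1) was 4 with no fold threshold and 0 to 1 with a pig left out. In GS at 12h (1) it was 2 with no replicate block, by DESeq2, with DESeq2 size factors and with the exon length and GC trend removed, 7 with no fold threshold and 1 to 3 with a pig left out. In PD at 6h (0) it was 1 by DESeq2, in 1 fit of all libraries and with the trend removed. In PD at 12h (2) it was 0 with only 2 time points, 1 without pig 4 at 0h, 3 without pig 2 at 12h (HERPUD1 added) and 0 to 2 with a pig left out. For 12h against 6h in PD (0) it was 2 in 1 fit of all libraries, DNAJB9 and MANF. For the interaction at 6h (0) it was 0 to 1 with a pig left out. At 0h (5) it was 4 with the trend removed and 5 otherwise. Leaving out the block on pig changed no other of these counts; without it, DNAJB9 in GS at 6h had an adjusted p of 0.0907.

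Values that had not passed changed sign under some settings, among them DNAJB9 at 0h (0.45) and the SDF2L1 entry in PD at 12h (0.49). ATF6 in GS at 6h was 0.10 with no replicate block, 0.048 with 2 time points, 0.025 by DESeq2 and with its size factors, 0.0059 in 1 fit of all libraries, 0.14 with the trend removed and −0.13 to 0.10 with a pig left out. At 12h these were 0.10, 0.052, 0.039, 0.039, 0.016, 0.13 and −0.14 to 0.091. With the trend removed, log2 values were −0.12 for the SDF2L1 entry and −0.075 for CRELD2 in GS at 6h, −0.076 for CRELD2 in GS at 12h, −0.045 for PDIA4 in PD at 12h, −0.021 for DNAJB9 and 0.0095 for MANF in the interaction at 6h and 12h, and −0.23 for DNAJB9 and 0.12 for ATF6 at 0h. Without PD pig 4 at 0h, PDIA4 in PD at 6h was 0.034, CRELD2 in PD at 12h 0.13, and the interaction −0.12 for HSPA5 at 6h and 0.14 for MANF at 12h. Without PD pig 2 at 12h, the 12h values in PD were −0.31 for the SDF2L1 entry and −0.082 for PDIA4. CRELD2 in PD at 12h was 0.27 with no replicate block, and the 12h interaction of MANF was 0.0025 by DESeq2 and 0.0028 with its size factors. With a pig left out, log2 values ranged from −0.29 to 0.037 (HSP90B1), −0.44 to 0.0083 (MANF) and −0.63 to 0.0093 (PDIA4) in PD at 6h, from −0.92 to 0.30 (CRELD2), −0.20 to 0.49 (PDIA4) and −0.34 to 1.18 (SDF2L1) in PD at 12h, from −0.042 to 0.21 (SDF2L1) in GS at 6h and from −0.13 to 0.063 (ATF6) at 0h. The interaction ranged from −0.22 to 0.31 (HSPA5, 6h), −0.19 to 0.46 (HSPA5, 12h) and −0.18 to 0.16 (MANF, 12h). The cause of these changes was not tested. Another 701 values kept direction and call.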

Other observations

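The chaperones of the cytosol and mitochondria, which the heat shock response controls, were looked at beside those of the ER. Of 12 listed genes 11 were found (HSPA4L was not). In GS 0 of 11 were called against 0h at either time, and without the fold threshold 2 of 11 were higher at both times (13.6% and 17.6% of all genes at 6h and 12h), HSP90AB1 (log2 fold change 0.51 ± 0.13 at 6h and 0.79 ± 0.13 at 12h, edgeR adjusted p = 0.0115 and 0.000704) and HSPA4 (0.37 ± 0.11 and 0.38 ± 0.11). In PD 0 of 11 were called at 6h and 1 at 12h, BAG3, a cochaperone of HSP70 (1.42 ± 0.34, edgeR adjusted p = 0.0351), against 3.22% of all genes called higher. The median over the list was 0.29 and 0.06 in GS and 0.22 and 0.58 in PD. At 0h HSPE1, the mitochondrial cochaperonin, was higher in PD (2.48 ± 0.29) and BAG3 lower (−1.87 ± 0.50), with 2 of 11 higher and 1 lower in all, against 21.3% and 19.3% of all genes. With the exon length and GC trend removed, 0 of the 10 genes with a length were higher in PD and 1 was lower, against 21.4% and 18.1% of all genes.

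Over time in GS, 2 of 6 airway secretory markers were called lower at 12h (8.66% of all genes), 1 of 6 plasma cell markers was called higher at 6h and at 12h (5.5% and 6.99% of all genes), and, by the same 2-fold rule, 0 of the alveolar type 2, endothelial, macrophage, neutrophil and fibroblast markers were called. In PD 1 of 6 plasma cell markers was called higher at both times (0.135% and 3.22% of all genes) and 0 of the other markers. The median log2 fold change over the 6 plasma cell markers was −0.004 at 6h and 0.14 at 12h in GS. In PD it was −0.03 and 0.22.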
